A study of Homo sapiens with 4 samples.

Results

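Cholesterol and fatty acid synthesis under the sterol regulatory element-binding proteins (SREBPs) was followed in BEAS-2B cells, an immortalised line of human bronchial epithelial cells. The 31 genes described were a named list, and each was found by its symbol among the 25411 gene rows of the deposited tables. They comprise 18 enzymes of sterol synthesis, 6 genes that regulate SREBP or carry sterol (INSIG1, INSIG2, SREBF1, SREBF2, SCAP and STARD4), and 7 genes of fatty acid synthesis and desaturation (FASN, SCD, ACACA, ACLY, ELOVL6, FADS1 and FADS2). RNA was sequenced from 2 libraries of untreated cells grown for 72 h and 2 libraries of cells grown for 72 h with 5 µM cadmium chloride, and both groups were the same line in the same basal medium. The labels place the controls under experiment 1 and the cadmium cells under experiment 2, and an effect of the experiment cannot be told apart from one of cadmium. The labels do not say whether the 2 libraries of a group are separate cultures, so each p-value rests on library-to-library spread alone, part or all of which may be technical. In bulk RNA, fewer cells expressing a gene and less RNA per cell cannot be told apart.

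SREBPs are transcription factors held in the endoplasmic reticulum by the escort protein SCAP and the INSIG proteins while sterol is plentiful. When sterol falls, SCAP carries them to the Golgi, where proteases release the part that enters the nucleus. SREBF2 encodes the form known mainly for sterol genes, and SREBF1 encodes the forms known mainly for fatty acid genes. INSIG1 is itself a target of SREBP, which makes it part of a feedback loop.

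Assigned reads ranged from 8609243 to 29937242 per library, with control replicate 2 the shallowest, where 3 reads correspond to 0.356 CPM (reads scaled to a common library size with TMM factors). Every one of the 31 genes passed the low-count filter, and the lowest count of any of them in any library was 74 reads. Libraries of a group differed by more than sampling noise (chi-square per gene 11.8 between controls and 7.72 between cadmium libraries). The exposure was visible in MT2A, a metallothionein that binds cadmium and zinc, at 277 and 378 CPM in the controls and 3596 and 3315 CPM with cadmium. Of 6 simple epithelial markers, KRT8 and KRT18 were abundant in all libraries, KRT19 was under the filter and CDH1 was nearly absent (11 and 1 reads in control, 28 and 15 with cadmium), and the list summed to 1270 to 1476 CPM in control and 1087 to 1196 CPM with cadmium, KRT7 being lower (log2 fold change -1.02, edgeR adjusted p = 0.00234) and EPCAM higher (1.36, adjusted p = 0.0131). Of 6 adipocyte and hepatocyte markers 0 passed the filter, with ADIPOQ, LEP and TTR at 0 reads and a list sum of 0.384 to 0.594 CPM in control and 0.506 to 0.751 CPM with cadmium. Of 5 leukocyte markers 3 had 0 reads, and the list, which was almost only CD14, summed to 6.84 to 11.4 CPM in control and 7.53 to 11.3 CPM with cadmium, and 4 endothelial markers summed to under 1 CPM in every library. Of 5 fibroblast markers DCN had 0 reads, and the list, almost only the collagen gene COL1A1, summed to 3539 to 4381 CPM in control and 3070 to 3265 CPM with cadmium. The nuclear-retained RNAs MALAT1 and NEAT1, which are also read as signs of RNA quality, rose with cadmium by 0.87 and 0.59 on the log2 scale. Their list of 4 summed to 720 to 895 CPM in control and 1267 to 1303 CPM with cadmium, MEG3 had 0 reads, and the part of this shift in the results was not tested.

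Of the 31 genes, 12 rose with cadmium, 0 fell and 19 did not pass (edgeR, Benjamini-Hochberg adjusted p under 0.05 over 13663 genes). The background was 8.85% of all tested genes higher and 7.66% lower. INSIG1 rose most, by 1.46 on the log2 scale, followed by the desaturase SCD (1.23) and the sterol enzyme MSMO1 (0.87). Among the sterol enzymes 4 of 18 rose, all of them in the arm from squalene synthesis to cholesterol, and among the fatty acid genes 4 of 7 rose. The median log2 fold change was 0.13 for the sterol enzymes, 0.45 for the regulators and STARD4, and 0.43 for the fatty acid genes, against 0.0019 over all tested genes. Both cadmium libraries lay above both controls for 20 of the 31 genes and below them for 3, where 31.3% and 30.8% of all tested genes did so.

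With DESeq2 11 of the 31 rose and 0 fell (background 7.5% higher, 7.13% lower), and with limma-voom 12 rose and 0 fell (10.6% and 9.34%). Without cadmium replicate 2 the number that rose was 5 (background 4.18% higher, 2.08% lower), and without cadmium replicate 1 it was 8 (2.71% and 1.73%). Without control replicate 1 it was 13, with SREBF1 called lower (7.56% and 7.34%), and without control replicate 2 it was 11 (13.8% and 12.5%). Scaling by library size alone gave 12 (10.6% and 4.99%), level-dependent scaling 13 (7.63% and 5.28%), no filter 14 (9.09% and 8.09%), a stricter filter 12 (10.2% and 7.08%), a block for the replicate number 11 (7.85% and 5.94%) and a block with those numbers crossed, added after seeing the data, 15 (11.4% and 10.8%), with 0 lower in each.

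**Figure D1:**
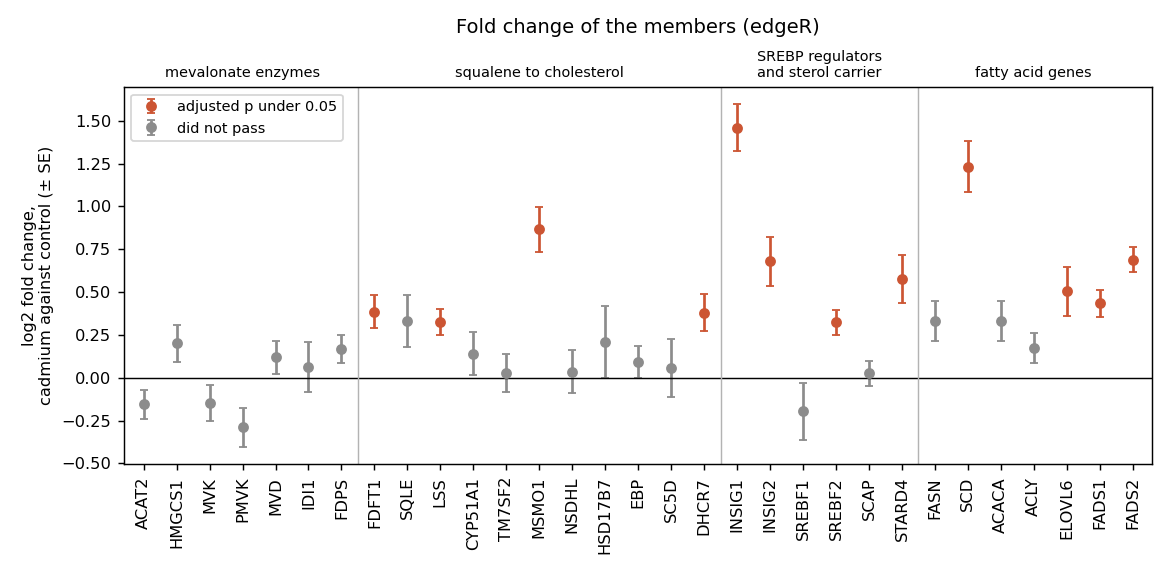
Log2 fold change of the 31 genes with cadmium against control, ordered by role along the horizontal axis, where points are edgeR estimates, bars are ± 1 SE, and red marks an adjusted p under 0.05. INSIG1 (1.46) and SCD (1.23) stand highest, and the 7 mevalonate enzymes lie between -0.29 and 0.20.

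Promoter sequence was examined for motifs that SREBP and its partners are known to bind. RefSeq windows (GRCh38.p14, another build than the hg19 of the counts) were found for 27 of the 31 genes, and not for ACAT2, FDFT1, SQLE and FASN. The 250 bases before each start were searched on both strands for TCACNCCAC, a form of the sterol regulatory element, for its core CACNCCAC (contained in the longer form), for CCAAT, the box bound by NF-Y, for GGGCGG, the box bound by Sp1, and for the E-box CACGTG. NF-Y and Sp1 are known partners of SREBP. The stretches shown belong to the transcription factor gene that holds the longer element and to the regulator, sterol enzyme and desaturase with the largest fold changes. Each runs 5′ to 3′ from position -250, with position -1 the base before the RefSeq start. It stops where GENCODE v29 annotates an exon of the same gene, which need not be coding sequence. Capitals mark CCAAT, or ATTGG where the box lies on the other strand, and in SREBF2 also the match to TCACNCCAC.
SREBF2 (chr22:41832855-41833078, plus strand, positions -250 to -27): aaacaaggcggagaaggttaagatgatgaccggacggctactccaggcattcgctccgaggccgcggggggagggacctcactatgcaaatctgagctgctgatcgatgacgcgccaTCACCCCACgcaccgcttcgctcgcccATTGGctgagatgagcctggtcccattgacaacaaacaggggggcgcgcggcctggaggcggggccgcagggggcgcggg
INSIG1 (chr7:155297628-155297775, plus strand, positions -250 to -103): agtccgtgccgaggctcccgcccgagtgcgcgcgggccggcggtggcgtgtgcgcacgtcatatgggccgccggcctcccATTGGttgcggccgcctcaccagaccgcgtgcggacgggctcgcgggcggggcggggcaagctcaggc
MSMO1 (chr4:165327419-165327622, plus strand, positions -250 to -47): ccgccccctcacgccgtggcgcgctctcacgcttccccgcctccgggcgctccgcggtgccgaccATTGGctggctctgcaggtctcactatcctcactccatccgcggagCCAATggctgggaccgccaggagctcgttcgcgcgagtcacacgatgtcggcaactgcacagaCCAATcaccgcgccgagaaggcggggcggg
SCD (chr10:100346983-100347123, plus strand, positions -250 to -110): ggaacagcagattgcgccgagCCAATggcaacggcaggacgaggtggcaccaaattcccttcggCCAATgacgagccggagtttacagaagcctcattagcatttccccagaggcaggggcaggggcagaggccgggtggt

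TCACNCCAC was found in SREBF2 alone among the 27 genes (3.7%), starting at position -133, and in 1.09% of 27305 genes with a window. CACNCCAC was in 6 of the 27 genes (22.2%, against 5.89% of all genes), of which INSIG1 (position -208), SCD (position -114) and SREBF2 rose and IDI1, SC5D and ACACA did not pass. CCAAT was in 19 of 27 (70.4%, against 37% of all genes). MSMO1 held it at positions -185, -139, -76 and -34, the last beyond the stretch shown, SCD at -229 and -186, INSIG1 at -170 and SREBF2 at -106. GGGCGG was in 26 of 27 (96.3%, against 46.2%), and CACGTG in 3 of 27 (11.1%, against 7.73%). A gene with several windows counted if any of them held the motif. The 27305 genes include many outside the 13663 tested, while each of the 27 passed the low-count filter, so these shares compare unlike sets. CCAAT was present in 7 genes that rose (INSIG1, SCD, MSMO1, LSS, DHCR7, STARD4 and SREBF2) and in 12 that did not pass, among them HMGCS1, MVK, MVD, IDI1, FDPS and ACLY. Of the genes that rose, INSIG2, ELOVL6, FADS1 and FADS2 had no CCAAT in the window. Among those that did not pass, PMVK, CYP51A1, SREBF1 and SCAP had none. The box was thus not more frequent in the genes that rose. These matches describe letters in a window and no binding was measured.

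Levels per length differed widely within the pathway. By the authors' RPKM, the highest control means were ACLY (134 ± 6.82, SD, n = 2), which makes cytosolic acetyl-CoA from citrate, and FDPS (129 ± 8.15), which makes farnesyl diphosphate. The lowest were SC5D (2.73 ± 0.619), a late sterol desaturase, and ELOVL6 (3.20 ± 0.154), which lengthens saturated fatty acids. FASN, the fatty acid synthase itself, stood at 99.8 ± 0.478 RPKM in control. SREBF1 (70.4 ± 17.5) and SREBF2 (62.7 ± 0.239) had overlapping control values in RPKM; SREBF1 was the less even of the pair between controls.

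**Figure D2:**
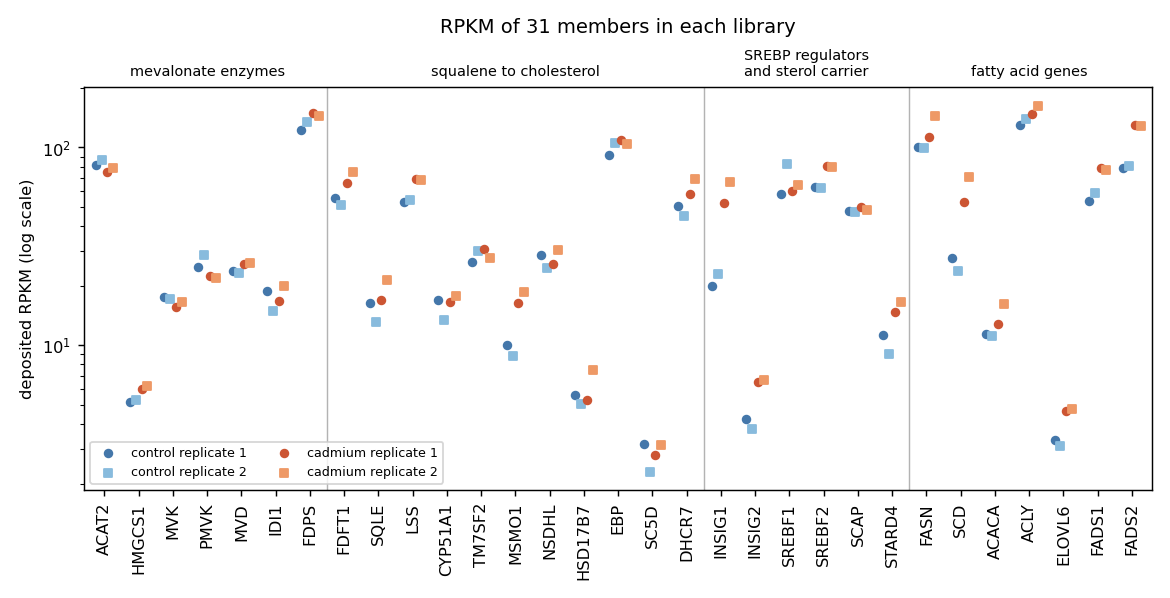
Authors' RPKM of each of the 31 genes on a log axis, with 1 point per library, blue for the 2 controls and red for the 2 cadmium libraries. Values span from 2.29 for SC5D in control replicate 2 to 163 for ACLY in cadmium replicate 2, and the red points of INSIG1, SCD, MSMO1 and FADS2 stand clear of the blue.

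The mevalonate enzymes listed here act on the path from acetyl-CoA to farnesyl diphosphate, and not every step of it is among them. Of these 7 genes 0 rose and 0 fell with edgeR, DESeq2 or limma-voom. Over all tested genes 8.85% were higher and 7.66% lower with edgeR, 7.5% and 7.13% with DESeq2, and 10.6% and 9.34% with limma-voom. For 7 genes, 0 calls is near these shares. With edgeR 1 of the 7 had an unadjusted p under 0.05, where 4642 of 13663 tested genes did. The median log2 fold change of the 7 was 0.063. HMGCS1, the HMG-CoA synthase and a known SREBP target, was at 32.4 and 32.9 CPM in the controls and 36.6 and 38.4 CPM with cadmium. The groups did not overlap, but the log2 fold change of 0.20 (SE 0.11) did not pass (adjusted p = 0.224). FDPS was at 195 and 212 CPM in control and 232 and 225 CPM with cadmium, and MVD, which decarboxylates mevalonate diphosphate, at 48.7 and 47.7 CPM in control and 52.0 and 53.0 CPM with cadmium. Both stood slightly higher in the cadmium libraries without passing (adjusted p = 0.195 and 0.423).

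In 3 of the 7 genes both cadmium libraries lay below both controls, and in 3 above, near the 30.8% and 31.3% of all tested genes. PMVK, phosphomevalonate kinase, was at 37.0 and 42.5 CPM in control and 32.4 and 32.2 CPM with cadmium, or -0.29 ± 0.12 (SE) in log2 units (adjusted p = 0.118). MVK, mevalonate kinase, was at 41.7 and 40.6 CPM in control and 35.9 and 38.7 CPM with cadmium (adjusted p = 0.372). ACAT2, which joins 2 acetyl-CoA molecules, was at 145 and 154 CPM in control and 131 and 138 CPM with cadmium (adjusted p = 0.240). None of these 3 genes passed. ACAT2 shares its locus with TCP1 on the opposite strand, and the sources used here do not say whether strand was used in counting. IDI1, the isopentenyl diphosphate isomerase, had overlapping groups at 46.2 and 36.6 CPM in control and 39.8 and 48.0 CPM with cadmium. The median of the 7 turned to -0.090 without control replicate 2 and -0.068 without cadmium replicate 2, in both cases the value of IDI1.

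From squalene synthesis to cholesterol, 4 of 11 genes rose and 0 fell (background 8.85% higher, 7.66% lower). All 11 estimates were above 0, as were those of 6862 of 13663 tested genes. Of the 11, 6 turned below 0 in some alternative (CYP51A1, TM7SF2, NSDHL, HSD17B7, EBP and SC5D). The median of 0.21 was 0.12 without cadmium replicate 2 and with limma-voom, and 0.33 without control replicate 1 or cadmium replicate 1. MSMO1, which begins removal of the methyl groups at carbon 4 of the sterol ring, rose most. It was at 24.0 and 21.0 CPM in control and 38.4 and 44.7 CPM with cadmium, a 1.82-fold difference (0.87 ± 0.13 SE in log2 units, adjusted p = 0.00715). Both cadmium libraries were far above both controls, and MSMO1 passed in all 12 alternatives tried (log2 fold change 0.76 to 0.98).

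The other 3 that rose changed by less than 1.5-fold. LSS, lanosterol synthase, was at 259 and 263 CPM in control and 327 and 327 CPM with cadmium (0.32 ± 0.074 SE in log2 units, adjusted p = 0.0239). FDFT1, squalene synthase, was at 137 and 129 CPM in control and 162 and 186 CPM with cadmium (0.39, SE 0.095, adjusted p = 0.0302). DHCR7, which reduces 7-dehydrocholesterol in the last step, was at 155 and 138 CPM in control and 174 and 208 CPM with cadmium (0.38, SE 0.11, adjusted p = 0.0470). Replicates of LSS were nearly identical, while FDFT1 and DHCR7 were higher in cadmium replicate 2 than in replicate 1. LSS missed the threshold without cadmium replicate 1 (adjusted p = 0.141) and without cadmium replicate 2 (0.133), FDFT1 without cadmium replicate 2 (0.232), and DHCR7 when control replicate 2 (0.0668) or cadmium replicate 2 (0.316) was left out. Over the 12 alternatives the log2 fold change ran from 0.31 to 0.43 for LSS, 0.29 to 0.49 for FDFT1 and 0.25 to 0.51 for DHCR7.

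Among the 7 that did not pass, SQLE, the squalene epoxidase, had the largest estimate. It was at 56.4 and 44.8 CPM in control and 56.9 and 72.1 CPM with cadmium (0.33, SE 0.15, adjusted p = 0.163), so cadmium replicate 1 was level with control replicate 1. SQLE passed without control replicate 1 (0.52, adjusted p = 0.0498) and in no other alternative. Groups overlapped for CYP51A1, TM7SF2, NSDHL, HSD17B7, EBP and SC5D, which encode demethylase, reductase, dehydrogenase, isomerase and desaturase steps between lanosterol and cholesterol. Their estimates ran from 0.029 for TM7SF2 to 0.21 for HSD17B7, with adjusted p from 0.466 to 0.882. TM7SF2 overlaps VPS51 on the same strand, and reads of the shared part cannot be assigned from these tables.

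The regulators held the largest change among the 31 genes. INSIG1, which retains SCAP and SREBP in the endoplasmic reticulum, was at 68.8 and 77.9 CPM in control and 175 and 227 CPM with cadmium, a 2.75-fold difference (1.46 ± 0.14 SE in log2 units, adjusted p = 0.00241). INSIG2, its paralogue, was at 12.5 and 11.2 CPM in control and 18.8 and 19.5 CPM with cadmium (0.68, SE 0.14, adjusted p = 0.0184). Neither gene had overlapping groups. In the authors' deposited table INSIG1 has a log2 ratio of 1.33 (adjusted p = 3.02e-20).

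SREBF2 was at 381 and 379 CPM in control and 478 and 473 CPM with cadmium (0.32, SE 0.073, adjusted p = 0.0229), with near-identical replicates in each group. SREBF1 did not pass (-0.20, SE 0.17, adjusted p = 0.459). Its controls were far apart, at 329 and 470 CPM, and both cadmium libraries, at 333 and 363 CPM, lay between them. Without control replicate 1 SREBF1 stood at -0.43 and passed as lower (adjusted p = 0.00946), and without control replicate 2 it turned to 0.073. RAI1 overlaps SREBF1 on the opposite strand, with 23913 reads in all against 28433 for SREBF1. SCAP, the escort protein gene, was at 232 and 231 CPM in control and 238 and 233 CPM with cadmium, or 0.025 ± 0.076 (SE) in log2 units (adjusted p = 0.849). STARD4, which carries cholesterol between membranes and is a known SREBP target, was at 29.2 and 23.4 CPM in control and 37.3 and 42.5 CPM with cadmium (0.58, SE 0.14, adjusted p = 0.0274). STARD4-AS1 overlaps STARD4 on the opposite strand, with 239 reads in all against 2771. Over the 12 alternatives INSIG2 ran from 0.60 to 0.77, SREBF2 from 0.31 to 0.43 and STARD4 from 0.43 to 0.76. Each of these genes missed the threshold in 2 of the 12, the fits with a cadmium library left out. INSIG1 passed in all 12 alternatives (1.26 to 1.64).

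All 7 fatty acid genes had both cadmium libraries above both controls, as did 31.3% of all tested genes. Of the 7, 4 rose and 0 fell (background 8.85% higher, 7.66% lower). SCD, which makes oleate and palmitoleate from saturated chains, was at 174 and 149 CPM in control and 325 and 437 CPM with cadmium, a 2.35-fold difference (1.23 ± 0.15 SE in log2 units, adjusted p = 0.00626). Each cadmium library was well above both controls, and cadmium replicate 2 was the higher. FADS2 and FADS1, which introduce double bonds into polyunsaturated chains, lie 10975 bases apart on chromosome 11 in opposite orientation (hg19, 61595505 to 61634826 and 61567097 to 61584529). FADS2 was at 294 and 303 CPM in control and 482 and 480 CPM with cadmium (0.69, SE 0.075, adjusted p = 0.00308). FADS1 was at 273 and 300 CPM in control and 389 and 384 CPM with cadmium (0.43, SE 0.081, adjusted p = 0.0131). Replicates of this pair were close in the cadmium group, unlike those of SCD.

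ELOVL6 was at 12.5 and 11.4 CPM in control and 16.8 and 17.3 CPM with cadmium (0.50, SE 0.14, adjusted p = 0.0474). It missed the threshold in 5 of 12 alternatives, among them DESeq2 (adjusted p = 0.112), level-dependent scaling (0.0796) and leaving out either cadmium library (0.232 and 0.266), and the authors' deposited table gives it an adjusted p of 0.101. The enzymes that make the chain itself had smaller estimates that did not pass. FASN was at 972 and 966 CPM in control and 1062 and 1375 CPM with cadmium (0.33, SE 0.12, adjusted p = 0.0915), and ACACA, acetyl-CoA carboxylase, at 126 and 123 CPM in control and 138 and 175 CPM with cadmium (0.33, SE 0.12, adjusted p = 0.0868). For both, cadmium replicate 1 exceeded the controls by little and replicate 2 by more. ACLY was at 647 and 696 CPM in control and 715 and 799 CPM with cadmium (0.17, adjusted p = 0.193). Without cadmium replicate 1, FASN (0.51, adjusted p = 0.0210) and ACACA (0.50, adjusted p = 0.0433) passed, and FADS1 did not (adjusted p = 0.0596). FADS2 and SCD passed in all 12 alternatives, from 0.67 to 0.80 and from 1.01 to 1.44.

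Set side by side, the fatty acid genes had a median log2 fold change 0.30 above that of the sterol enzymes, with the first list at 0.43 and the second at 0.13. No p-value is given for this difference, since the genes were chosen with results known. Summed over the list, fatty acid genes took 2499 and 2547 CPM in control and 3129 and 3669 CPM with cadmium. Sterol enzymes took 1495 and 1477 CPM in control and 1648 and 1752 CPM with cadmium. The largest estimate was that of SCD (1.23) among the fatty acid genes, with FADS2 next at 0.69 and ELOVL6 at 0.50, and that of MSMO1 (0.87) among the sterol enzymes, with FDFT1 next at 0.39. The difference of medians was 0.15 without control replicate 1 and 0.32 to 0.34 without each other library in turn.

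The cadmium libraries were not alike across these genes. Of the 31 genes 23 were higher in cadmium replicate 2 than in replicate 1, where 6889 of 13663 tested genes were. The median over the 31 genes, taken against the control mean, was 0.15 in cadmium replicate 1 and 0.32 in cadmium replicate 2 on the log2 scale. For the fatty acid genes the medians were 0.44 and 0.51, and for the sterol enzymes 0.10 and 0.20. The widest gaps between the cadmium libraries were those of HSD17B7 (0.51), SCD (0.42), INSIG1 (0.38) and FASN (0.37). LSS, FADS1, FADS2, SREBF2 and PMVK differed by under 0.02.

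**Figure D3:**
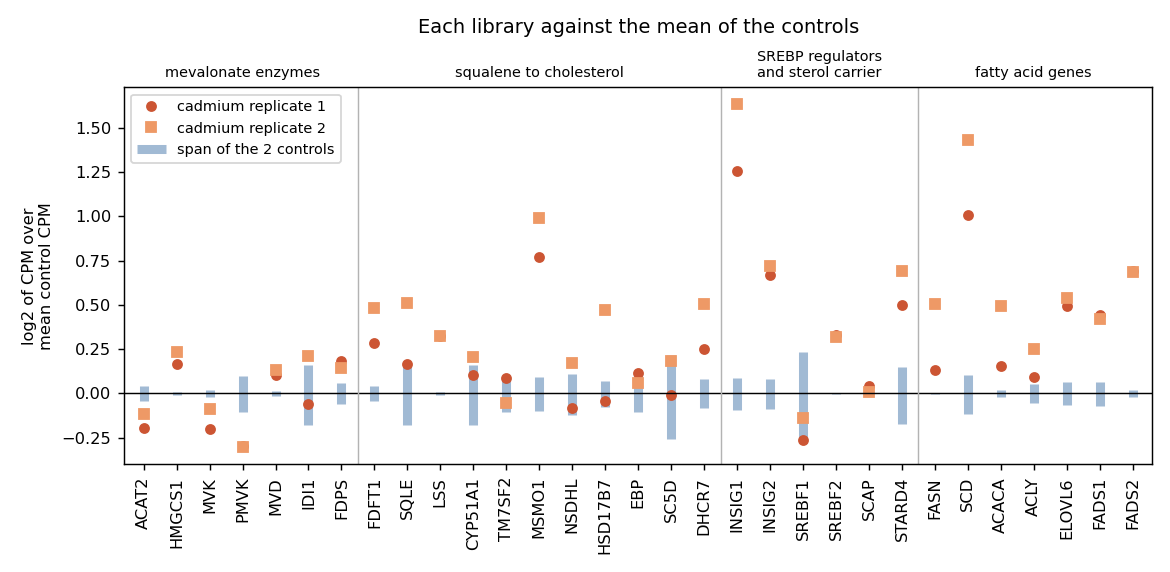
Log2 of each library's CPM over the mean control CPM for the 31 genes, with blue bars spanning the 2 controls, circles for cadmium replicate 1 and squares for cadmium replicate 2. The squares of INSIG1 (1.63), SCD (1.43) and FASN (0.51) lie above their circles (1.25, 1.01 and 0.13), and those of LSS and FADS2 coincide with them.

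Genes around the pathway were taken from 5 lists kept apart from the 31, which were also chosen with earlier results of these data known. Of 9 genes of the liver X receptors (LXR), which sense oxysterols, and of sterol efflux, 2 rose and 0 fell (background 8.85% higher, 7.66% lower). ABCA1, which exports cholesterol to lipid-poor apolipoprotein, was at 6.03 and 9.74 CPM in control and 22.7 and 29.1 CPM with cadmium (1.78 ± 0.24 SE in log2 units, adjusted p = 0.00626). ABCG1, which exports cholesterol to lipoprotein particles, was at 1.73 and 3.21 CPM in control and 9.93 and 10.6 CPM with cadmium (2.19, SE 0.29, adjusted p = 0.00493). Both exceeded INSIG1 in fold change from lower levels, and both passed in all 12 alternatives. The list median was 0.27, and the receptor genes NR1H2 (0.029) and NR1H3 (0.47, adjusted p = 0.0937) did not pass. Without control replicate 2, 4 of the 9 were called higher (background 13.8%).

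Of 14 genes of sterol traffic and storage 1 rose and 0 fell, with a median of 0.084, and 1 of 14 is near the 8.85% of all tested genes called higher. The gene was NPC1, which moves cholesterol out of lysosomes, at 112 and 108 CPM in control and 161 and 176 CPM with cadmium (0.61, SE 0.087, adjusted p = 0.00635). A further 9 genes reported here act in SREBP transport, tethering, cleavage or the degradation of its partners. With edgeR, DESeq2 or limma-voom 0 of them rose and 0 fell. Over all tested genes 8.85% were higher and 7.66% lower with edgeR, 7.5% and 7.13% with DESeq2, and 10.6% and 9.34% with limma-voom. For 9 genes, 0 calls is near these shares. With edgeR 0 of the 9 had an unadjusted p under 0.05, where 4642 of 13663 tested genes did. Their median log2 fold change was 0.015, and the groups overlapped for all 9, as for 5175 of the 13663. The site proteases MBTPS1 and MBTPS2 had estimates of 0.098 and -0.11 that did not pass.

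Of 13 genes of the wider isoprenoid branch (protein prenylation and its later steps, ubiquinone, dolichol and tRNA modification) 0 rose and 2 fell, against backgrounds of 8.85% and 7.66%, and the median was -0.16. They were FNTB, a protein farnesyltransferase subunit (-0.56, adjusted p = 0.0369), and COQ2, an enzyme of ubiquinone synthesis (-0.43, adjusted p = 0.0454). Both missed the threshold in 6 of 12 alternatives, among them DESeq2 (adjusted p = 0.0796 and 0.101) and scaling by library size alone (0.0533 and 0.0713). FNTB also missed it without control replicate 1 (0.0820), and both did without cadmium replicate 1 (0.274 and 0.305) and replicate 2 (0.166 and 0.194). Without control replicate 2, 4 of the 13 were called lower (background 12.5%). Of 19 genes of fatty acid supply, elongation and desaturation 3 rose and 0 fell (background 8.85% and 7.66%), with a median of 0.23. ACSS2, which makes acetyl-CoA from acetate, was at 32.1 and 33.6 CPM in control and 43.1 and 44.7 CPM with cadmium (0.42, adjusted p = 0.0307), and the elongase ELOVL7 rose by 0.63 (adjusted p = 0.0369). ACSS2 (0.38 to 0.48) and ELOVL7 (0.48 to 0.84) each missed the threshold in 4 of 12 alternatives, among them the fits with a cadmium library left out. The number higher in this list was 5 when control replicate 2 was left out (background 13.8%), 1 when cadmium replicate 1 was (2.71%) and 0 when cadmium replicate 2 was (4.18%).

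MLXIPL, which encodes the carbohydrate-responsive factor ChREBP, was counted at 0 and 4 reads in control against 132 and 36 in the cadmium libraries. It passed with edgeR (adjusted p = 0.0222) and missed the threshold in 5 of 11 alternatives. Among these were DESeq2 (0.254), limma-voom (0.0574) and the fits with a cadmium library left out. With so few control reads the size of its change is uncertain. It was at 4.31 and 2.28 CPM with cadmium.

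**Figure D4:**
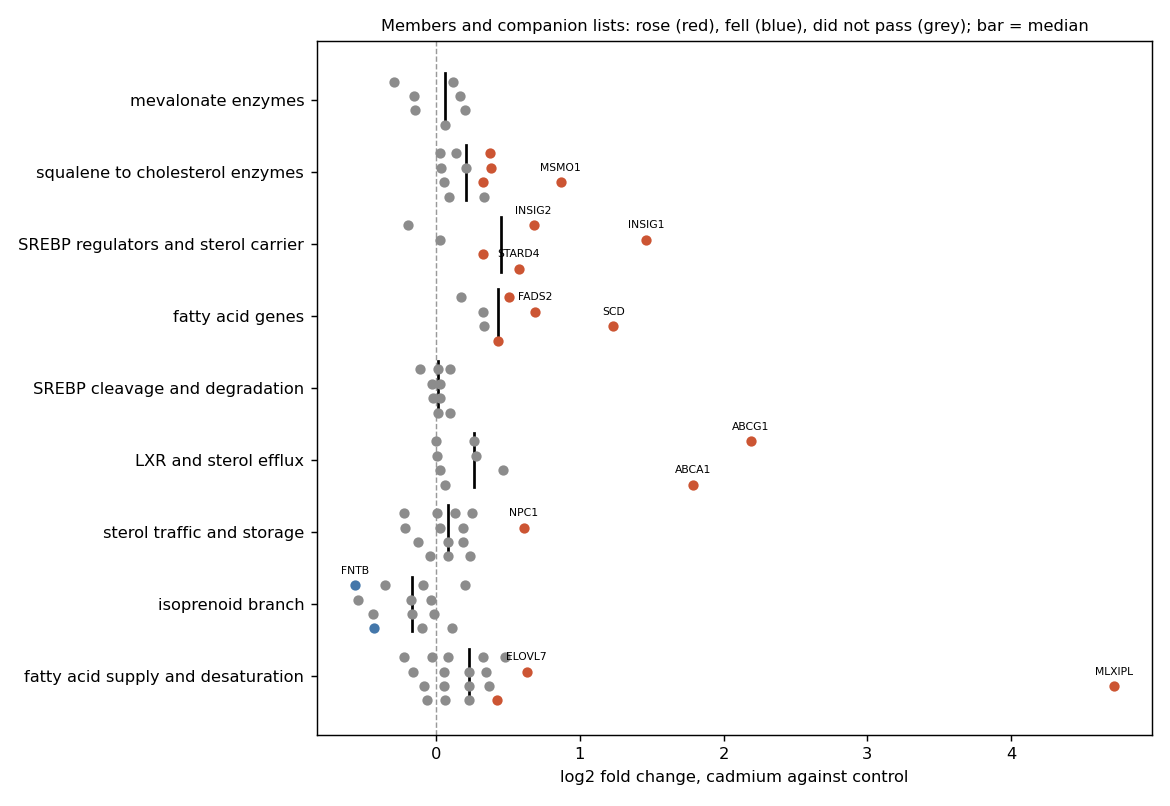
Log2 fold change of every tested gene in the 4 lists that make up the 31 genes and in 5 further lists, 1 row per list, where points are genes (red rose, blue fell, grey did not pass), the vertical spread within a row has no meaning, and black bars are list medians. ABCG1 (2.19) and ABCA1 (1.78) stand to the right of INSIG1 (1.46), the isoprenoid branch has a median of -0.16, and the far point is MLXIPL, whose fitted 4.72 rests on 4 control reads.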

How the data were processed

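RNA was measured in 2 control and 2 cadmium libraries of BEAS-2B cells, grouped by their titles. The authors deposited, per the file headers, whole-number read counts and RPKM per RefSeq gene for each library, and a comparison table with group mean RPKM, a log ratio and p-values. The submitters' processing notes name STAR 2.4, DESeq2, DESeq and hg19; which counter, annotation release and strand setting were used is not stated there. The authors' deposited log ratio was taken to be log2: among 1781 genes with over 50 RPKM in control, regressing the log2 RPKM ratio on it gave a slope of 1.11. Rows were joined by RefSeq identifier, and HACD2 and HACD3 were found under older symbols through RefSeq accessions.

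Deposited counts were fitted with R 4.3.3 and edgeR 4.0.16 (filterByExpr, TMM, group alone, robust quasi-likelihood test), with Benjamini-Hochberg adjustment over 13663 genes and a threshold of 0.05. All adjusted p-values are edgeR's unless another tool is named. SE came from the F statistic. Depth limits precision through control replicate 2, at 8609243 reads, and the spread between libraries. Simulated counts for cadmium against control (13663 genes, 200 changed, 3 draws) recovered 38.5% of changes of 0.5 and 81.1% of changes of 1 on the log2 scale, with 5.87% false calls. The simulation set each gene's spread by its level alone. It also changed fewer genes than the 1209 called higher and 1046 called lower in the data, so its rates need not hold for them. Alternatives were other scalings and filters, each library left out, a replicate block, DESeq2 1.42.0 and limma-voom (limma 3.58.1). The 31 genes, the further lists and the motifs were chosen with earlier results of these data known. All 31 genes could be named, with up to 3 passing genes of each further list, or the smallest p where none passed. Other genes are named after their values were seen. The list of SREBP cleavage and degradation leaves out a gene that is not reported here, so its counts cover the remaining 9 genes only.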

Additional observations from a re-analysis of the deposited data

How the results depend on the processing

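INSIG1, SCD, MSMO1, FADS2, ABCA1, ABCG1 and NPC1 kept direction and call in all 12 alternatives tried on single genes. Leaving out 1 library, where the lone one of its group is assumed to vary like the other group, gave 369 to 1977 higher and 235 to 1791 lower genes over the whole table, 5 to 13 higher and 0 to 1 lower among the 31 genes, 1 to 5 higher sterol enzymes (the same range from squalene synthesis onward), and 1 to 4 higher and 0 to 1 lower regulators. For the further lists it gave 2 to 4 higher for LXR and efflux, 0 to 4 lower for the isoprenoid branch, and 0 to 5 higher and 0 to 1 lower for fatty acid supply. In these fits 2.71% to 13.8% of all tested genes were called higher and 1.73% to 12.5% lower. The 31 genes and the sterol enzymes had fewest higher without cadmium replicate 2 (4.18% of all genes) and most without control replicate 1 (7.56%). The further lists given here had most calls without control replicate 2 (13.8% higher, 12.5% lower). The ends of the whole-table range are thus not those of the 31 genes. Over the same fits list medians ranged from 0.10 to 0.22 (sterol), 0.12 to 0.33 (squalene to cholesterol), -0.090 to 0.14 (mevalonate), 0.37 to 0.54 (regulators) and 0.37 to 0.51 (fatty acid), and the fatty acid minus sterol difference from 0.15 to 0.34.

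Scaling by library size alone called 682 genes lower (67.9% of calls higher, against 53.6%), 0 lower in the isoprenoid branch, and medians of 0.19 (sterol), 0.51 (regulators) and 0.49 (fatty acid). Level-dependent scaling gave a regulator median of 0.51. With the stricter filter of 5 CPM in 2 libraries the fatty acid median was 0.47 and 1 isoprenoid gene was lower (background 7.08%). No filter called 6 fatty acid supply genes higher (background 9.09%). DESeq2 called 0 and limma-voom 4 isoprenoid genes lower (background 7.13% and 9.34%). FASN and ACACA passed with level-dependent scaling (adjusted p = 0.0429 and 0.0487) and with no filter (0.0313 and 0.0221). ELOVL6 lost its call with level-dependent scaling (0.0796).

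Signs turned for NSDHL (-0.00023) and SC5D (-0.0014) with limma-voom. Over all 12 alternatives, the leave-out fits included, IDI1 ranged from -0.090 to 0.25, CYP51A1 from -0.012 to 0.33, TM7SF2 from -0.074 to 0.12, NSDHL from -0.086 to 0.17, HSD17B7 from -0.048 to 0.47, EBP from -0.013 to 0.19, SC5D from -0.14 to 0.34 and SREBF1 from -0.43 to 0.073. The causes were not tested.

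The replicate numbers do not pair the libraries by any label, and deviations of same-numbered libraries correlated at -0.19 over genes. With the replicate block 1073 genes were higher and 811 lower, ELOVL6 (adjusted p = 0.0849) missed the threshold, and 0 isoprenoid genes were lower. With the pairing crossed, chosen after seeing the data, 1551 were higher and 1471 lower, and 5 fatty acid supply genes were higher.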
